A study of Danio rerio with 10 samples.

Results

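Cytosolic ribosomal protein genes were followed in zebrafish embryos on Affymetrix Zebrafish Genome Arrays, which carry 1 probe set or a few for each gene. The genes were taken by symbol, as those whose single annotated name is rpl or rps with a number, rplp with a number, rpsa or rpl and rps names with a letter or "-like" ending, leaving out the kinases named rps6k. This gave 72 of the 8793 genes on the array, 45 with rpl names (large subunit) and 27 with rps names (small subunit), each read by the probe set with the highest mean over all 10 arrays. Among the 72, rps19bp1 encodes a nucleolar protein that binds Rps19 and is no part of the ribosome, and rpl7l1 encodes a relative of Rpl7 known from ribosome assembly. They were kept because the names fit, and their values are given apart below.

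In experiment 1, embryos labelled Sb morphant, given a morpholino against sox19b, were set against control embryos, both at 4.3 h post fertilization (hpf), with 3 arrays each. The labels call these controls wild type, whereas the study's design text speaks of a placebo injection. In experiment 2, wild type embryos at 4 hpf, after the mid-blastula transition, were set against wild type embryos at 2.5 hpf, before it, with 2 arrays each. Each array of experiment 1 holds pooled embryos of a separately injected population, per the design text. The arrays hold RNA of whole embryos, so that fewer cells of a type and less RNA per cell cannot be told apart, and no strain or parents are given in the sources used here.

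The cytosolic ribosome is built from ribosomal RNA and about as many different small, mostly basic proteins as there are genes here, and cells make the parts of both subunits in matched amounts. In vertebrates the mRNAs of these proteins start with a run of pyrimidines, the terminal oligopyrimidine tract, through which growth signalling and the RNA-binding protein Larp1 set their translation and stability together. The fish egg supplies the embryo with ribosomes and with stored ribosomal protein mRNA, and the embryo's own genome adds new mRNA from the mid-blastula transition on. In zebrafish, carriers of 1 mutant copy of a ribosomal protein gene are known for tumours of the nerve sheath.

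The designed oligonucleotide that separates the groups of experiment 1 is shown because each result on the morphants rests on it. Per the labels it is complementary to an intron-exon junction of sox19b, so that it acts on splicing, and it was injected at the 1-2 cell stage. It is 25 bases long and reads, 5′ to 3′:
sox19b morpholino: acatttgactgtggagaggaaaaaa

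The transcript of the targeted gene does not check the knockdown. The brighter sox19b probe set read 9.13, 8.80 and 9.18 in arrays labelled morphant, against 8.48, 7.63 and 8.09 in control arrays, a rise of 0.97 on the log2 scale (adjusted p = 0.00214), and its other probe set rose by 1.33 (adjusted p = 1.82e-04). A morpholino against splicing can leave transcript amounts as they are, but here both probe sets rose, and the cause of the rise was not tested. In wild type embryos they also rose at 4 hpf over 2.5 hpf, by 0.93 and 1.59. Since the knockdown is not checked, the groups are called by their labels. Replicate arrays of a group correlated at 0.990 or more across 15502 probe sets, with control replicate 2 the furthest from its group. Control replicate 2 was also the brightest control array for 52 of the 72 genes.

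All values are log2 expression, on which a step of 1 stands for 2-fold. A gene is said to have risen or fallen where limma, fitted on all 15502 probe sets of 1 experiment, gave a Benjamini-Hochberg adjusted p below 0.05, and each adjusted p of a single gene comes from limma. By group mean, all 72 genes read above the level of control probe sets with no zebrafish target in all 4 groups. Rps27l came nearest, at 5.53, 5.81 and 5.23 in arrays labelled morphant against a level of 5.10. Its fall is thus measured close to background. The 2 experiments appear normalized apart, as sorted array values differed by up to 1.52 between them, against 0.37 and 0.19 within. Levels are thus compared within each experiment only.

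In the embryos labelled morphant, ribosomal protein transcripts were lower almost throughout the family. Of the 72 genes, 68 fell and 0 rose, where 42.5% of all probe sets were called, 21.2% lower and 21.3% higher. The median difference was -0.86, which is 1.81-fold lower, against -0.04 over all probe sets, and the quartiles of the family lay at -1.28 and -0.56. All 3 arrays labelled morphant lay below all 3 control arrays for 71 of the 72 genes, where 27.3% of all probe sets showed this, and above them for 0 genes, where 25.1% did. At least 2-fold falls were seen in 26 genes, where 6.65% of all probe sets fell so far, and at least 2-fold rises in 0, where 8.57% rose so far. At least 4-fold falls were seen in 8 genes, for which the share over all probe sets is not given here. The family's median level was 9.61, 9.51 and 9.48 in arrays labelled morphant, against 10.42, 10.64 and 10.52 in control arrays, so each group held together and the groups stood well apart.

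**Figure D1:**
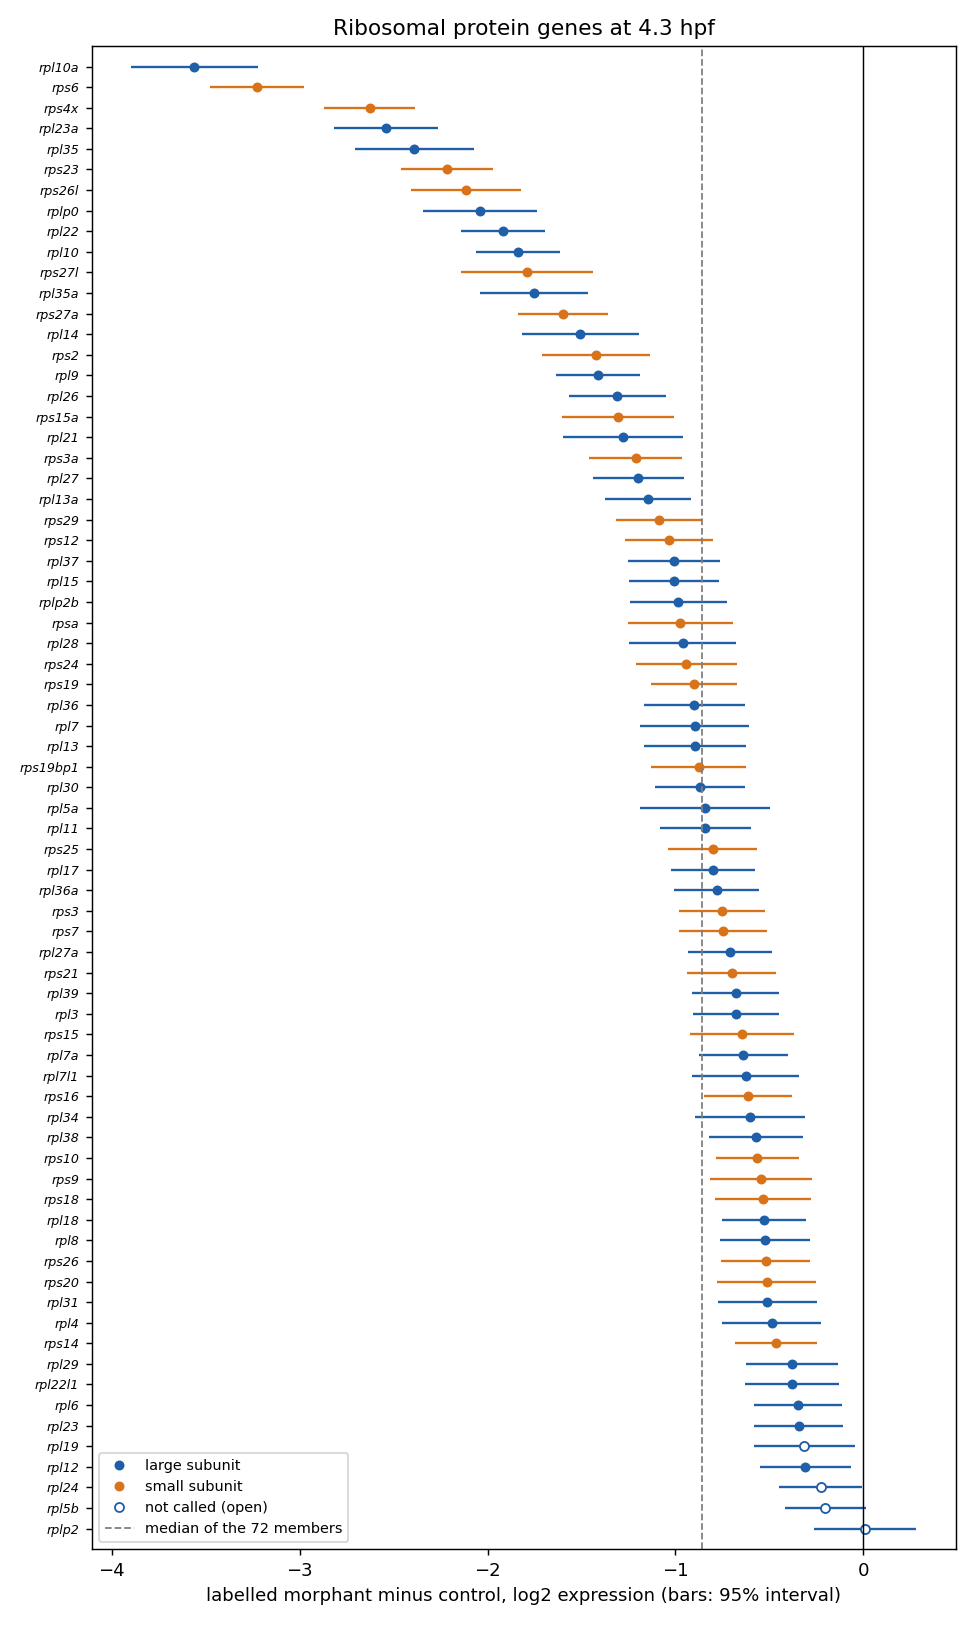
Difference between embryos labelled morphant and control embryos at 4.3 hpf for each of the 72 genes (log2 expression, bars are 95% intervals from the fit, blue large and orange small subunit, open circles not called, n = 3 arrays each). The points run from -3.56 for rpl10a to 0.01 for rplp2, and the dashed line marks the family median of -0.86.

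Both subunits were lower. All 27 rps genes fell, with a median of -0.90 and a range from -3.23 to -0.46, and rps19bp1, which is among them, fell by 0.88. Of the 45 rpl genes 41 fell, with a median of -0.84 and a range from -3.56 to 0.01. The median level of the rps genes was 9.65, 9.58 and 9.44 in arrays labelled morphant, against 10.70, 10.87 and 10.63 in control arrays. That of the rpl genes was 9.55, 9.43 and 9.52 in arrays labelled morphant, against 10.42, 10.64 and 10.51 in control arrays. The subunit medians differed by far less than the members of either subunit did, and the difference between subunits was not tested.

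Scaling on 27 Bacillus controls put the overall median at 0.21 in place of -0.04 and the family median at -0.61 in place of -0.86. Under it 55 of the 72 genes fell and 0 rose, where 1987 of all 15502 probe sets fell and 5631 rose. Such scaling moves every probe set of an array by the same amount, so it leaves the gap between the family and the overall median as it was. Without control replicate 2, 65 genes fell, where 3154 of all 15502 probe sets did, and the family median was -0.79.

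The deepest falls spread over both subunits. Rpl10a, a protein of the flexible stalk by which spent transfer RNA leaves, read 7.12, 7.41 and 6.80 in arrays labelled morphant, against 10.55, 10.75 and 10.72 in control arrays. It was 11.8-fold lower (-3.56, SE 0.15, adjusted p = 1.16e-07), the deepest fall of the family. Rps6, the small subunit protein that S6 kinase phosphorylates downstream of growth signals, read 7.09, 7.31 and 7.11 in arrays labelled morphant, against 10.32, 10.51 and 10.37 in control arrays. Its fall of 3.23 (SE 0.11, adjusted p = 4.83e-08) was the next in size, and no array of one group came near the other.

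Rps4x, an RNA-binding protein of the small subunit body, read 8.39, 8.26 and 8.19 in arrays labelled morphant, against 10.81, 10.90 and 11.01 in control arrays, 6.18-fold lower (SE 0.11 on the log2 scale, adjusted p = 9.73e-08). Rpl23a and rpl35 are neighbours at the exit of the tunnel through which the new peptide leaves. Rpl23a read 8.05, 7.86 and 7.68 in arrays labelled morphant, against 10.28, 10.51 and 10.42 in control arrays, 5.82-fold lower (adjusted p = 2.14e-07). Rpl35 read 7.83, 8.27 and 7.89 in arrays labelled morphant, against 10.24, 10.57 and 10.34 in control arrays, 5.24-fold lower (adjusted p = 5.89e-07). In each of these genes the groups were separated by several times the spread within either.

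Rps23, a protein of the decoding site, fell by 2.21 (adjusted p = 2.14e-07). The gene rps26l, a copy related to rps26, fell by 2.11 (adjusted p = 7.84e-07), and rplp0, which anchors the stalk that recruits elongation factors, fell by 2.04 (adjusted p = 1.22e-06). Rplp0 read 9.04, 8.59 and 8.89 in arrays labelled morphant, against 10.73, 11.00 and 10.92 in control arrays, without overlap. The next were rpl22 at -1.92, rpl10, which completes the large subunit near the peptidyl transferase site, at -1.84, rps27l at -1.79 and rpl35a at -1.75. Of these, rps27l was close to background in arrays labelled morphant. Rps27a, made as a fusion with ubiquitin, fell by 1.60, rpl14 by 1.51 and rps2 by 1.42.

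At the other end, 4 genes were not called, all with rpl names. Rplp2, one of the acidic stalk proteins, read 9.52, 9.38 and 9.43 in arrays labelled morphant, against 9.26, 9.65 and 9.38 in control arrays. It was the 1 gene of the 72 whose groups overlapped (0.01, 95% interval -0.26 to 0.28, adjusted p = 0.968). Rpl5b, rpl24 and rpl19 read lower in all 3 arrays labelled morphant but missed the threshold. Their differences were -0.20 for rpl5b (95% interval -0.42 to 0.01, adjusted p = 0.128), -0.23 for rpl24 (-0.45 to -0.01, adjusted p = 0.0954) and -0.31 for rpl19 (-0.58 to -0.04, adjusted p = 0.0622). The smallest falls that passed were those of rpl12 at -0.31, rpl23 at -0.34, rpl6 at -0.35 and rpl29 and rpl22l1 at -0.38 each. The calls of these 5 were each lost without some array or under Bacillus control scaling, and their highest adjusted p-values over the 14 alternatives ran from 0.287 for rpl29 to 0.639 for rpl12.

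Each gene was then set against the family, by centring each array on the family's median level before the fit. A difference then says how far a gene departed from the shift of that level. The shift was larger than the median of the members' own differences, -0.86. A gene near that median, such as rpl11 at -0.84, thus reads slightly above the family (0.15, not called), which tilts the counts toward above. The family's level differed by -0.995 between the groups, which makes 93.6% of all probe sets pass in that fit, nearly all of them above the family (89.0%, against 4.55% below). Of the 72 genes, 17 were below the family, 26 above it and 29 were not told apart from it. Centring moves the difference of every gene by the same amount, so at least 2-fold below the family is nearly the same cut as an at least 4-fold fall. The same 8 genes passed both, which adds nothing to the count of falls. Rpl10a was 5.92-fold below (SE 0.16 on the log2 scale, adjusted p = 8.68e-11), rps6 4.70-fold (SE 0.15, adjusted p = 1.44e-10) and rps4x 3.10-fold (SE 0.14, adjusted p = 6.07e-09). Rplp2 stood above the family by 1.00 (adjusted p = 2.78e-06), followed by rpl5b at 0.79 and rpl24 at 0.77. Large subunit genes made up 10 of the 17 below and 18 of the 26 above, and small subunit genes the other 7 and 8.

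Grouped by place in the ribosome, members of the same site spanned wide ranges. These groups were drawn up with the results known and are a description. Of all probe sets 21.2% fell. At the exit of the peptide tunnel 6 of 7 genes fell, from rpl23a at -2.54 and rpl35 at -2.39 to rpl31 at -0.51, with rpl19 not called (median -0.80). Of the 4 stalk genes 3 fell, with rplp0 at -2.04, rplp2b at -0.98 and rpl12 at -0.31, while rplp2 did not. All 5 genes of the mRNA channel and decoding site fell (median -0.75), with rps23 at -2.21 and rps2 at -1.42 lowest and rps9 at -0.54 highest. The 8 genes of the small subunit head all fell, by between 0.51 and 1.09 (median -0.71), among them rps29 at -1.09, rps12 at -1.03 and rps19 at -0.90. In humans RPS19 is the gene most often mutated in Diamond-Blackfan anaemia. The platform genes rps3a, rps14 and rps26 fell by 1.21, 0.46 and 0.52. Of the particle that carries 5S ribosomal RNA and can bind the p53 regulator Mdm2, rpl11 and rpl5a fell by 0.84 each and rpl5b was not called.

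Where the array held 2 genes with related symbols, the differences of the pair lay apart in 4 of 5 pairs, judged by non-overlap alone. Among all single probe sets 27.3% lay lower without overlap and 25.1% higher, so non-overlap is common here. Its share among unrelated pairs of genes was not worked out. Rpl22, an RNA-binding protein of the large subunit, read 7.32, 7.31 and 7.23 in arrays labelled morphant, against 9.12, 9.24 and 9.25 in control arrays. Its relative rpl22l1 read 7.73, 7.85 and 7.72 in arrays labelled morphant, against 8.02, 8.31 and 8.10 in control arrays. The fall of rpl22 was thus deeper by 1.54 (SE 0.07). Rps26l read 7.26, 7.27 and 7.33 in arrays labelled morphant, against 9.25, 9.69 and 9.27 in control arrays, and rps26 fell by 0.52, a gap of 1.59 (SE 0.12). Rplp2b fell deeper than rplp2 by 0.99 (SE 0.06) and rpl5a deeper than rpl5b by 0.64 (SE 0.19). For these 4 pairs the within-array difference did not overlap between groups, which gives p = 0.1 in an exact two-sided permutation test (0.125 adjusted over 5 pairs), the smallest value that 3 arrays against 3 allow. Rpl7 fell by 0.90 (adjusted p = 2.32e-04) and rpl7l1 by 0.62 (adjusted p = 0.00237). Their falls differed by 0.27 (SE 0.18, exact permutation p = 0.2), with overlapping groups. Related genes can share probe matches, and the place of the probes was not analysed here.

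**Figure D2:**
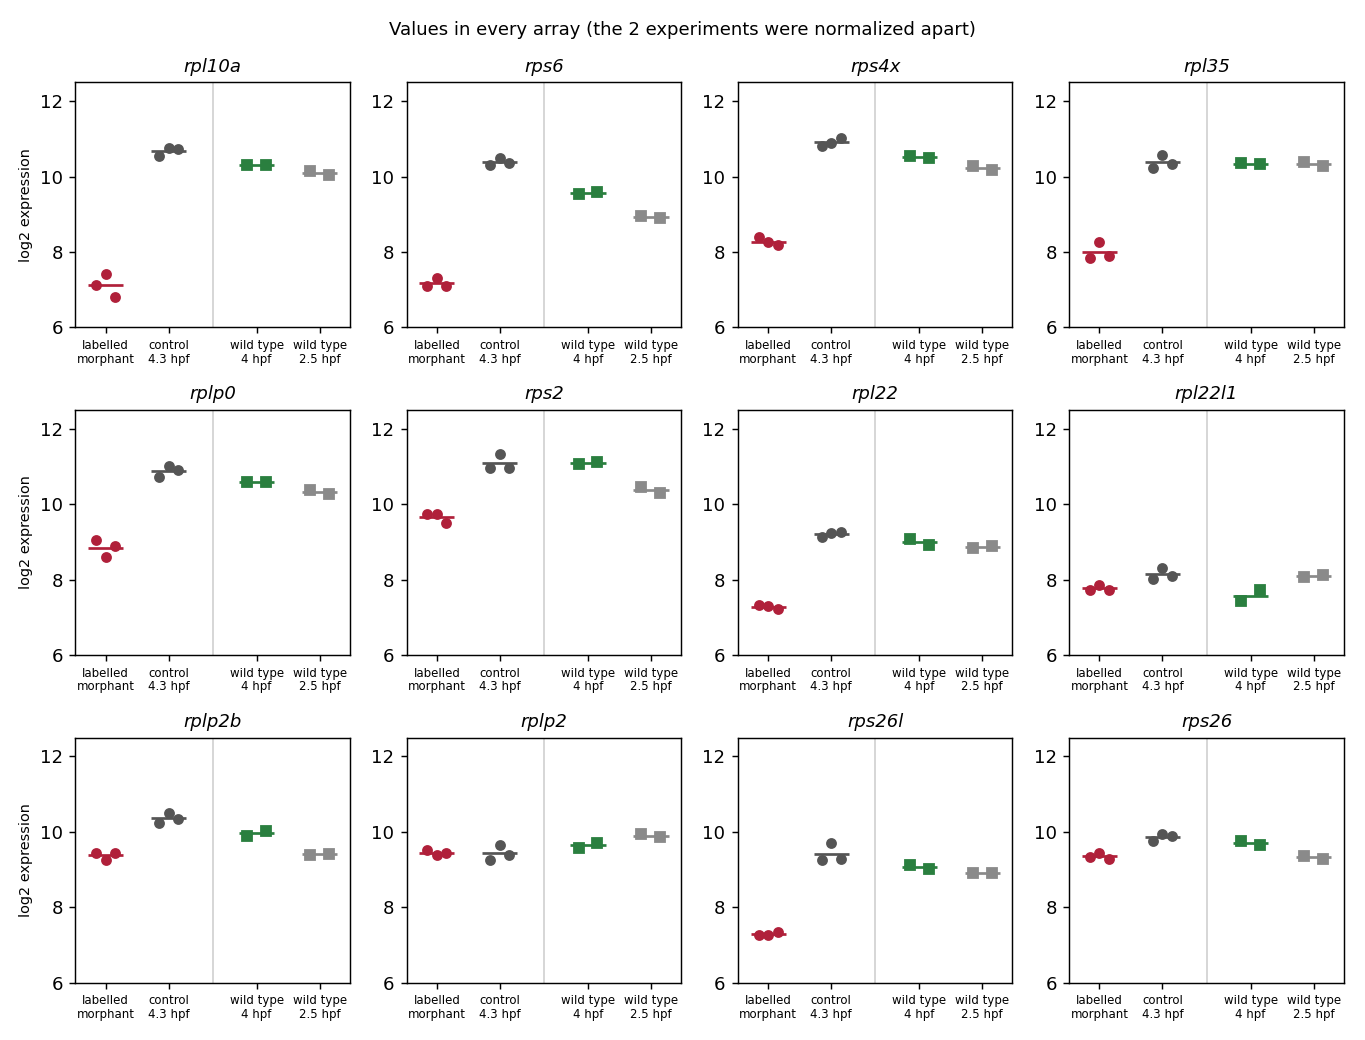
Log2 expression of 12 ribosomal protein genes in every array (circles experiment 1, squares experiment 2, bars group means). The arrays labelled morphant lie below the control arrays in all panels but rplp2, and rpl22l1 and rplp2 are the panels where both 4 hpf arrays lie below both 2.5 hpf arrays.

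Other probe sets bear on 3 of the genes, since 69 have a single one. Both probe sets of rpl3, which lies at the peptidyl transferase centre, fell, by 0.68 and 0.75. Both of rps19bp1 did too, by 0.88 and 0.68. The 2nd probe set of rpl21 was at background in all groups (adjusted p = 0.875), while the one used fell by 1.28. Ribosomal protein genes just outside the naming rule, chosen here after their values were seen, fell too. All 3 probe sets of rps27.1 fell, by 0.67 to 0.74, and rps27.2 fell by 1.26 (adjusted p = 4.51e-06). A probe set shared between rpl32 and kank1a fell by 0.60 (adjusted p = 0.00174).

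Stage markers shifted too, the zygotic, enveloping layer and yolk layer lists downward like the family and the maternal list upward. Their counts are read against all probe sets, of which 21.2% fell and 21.3% rose. Of 24 zygotic genes of the blastula, such as tbx16 and sox3, all 24 fell in the embryos labelled morphant. Their summed level on the linear scale was 2794 to 4196 in arrays labelled morphant, against 17174 to 20679 in control arrays. Of 18 maternal oocyte transcripts, such as mos and buc, 13 rose and 1 fell, with summed levels of 28512 to 31127 in arrays labelled morphant, against 9237 to 12435 in control arrays. Of 17 genes of the outer enveloping layer 16 fell, and of 8 of the yolk syncytial layer 6 fell. Summed levels of the enveloping layer list were 679 to 944 in arrays labelled morphant, against 7336 to 10839 in control arrays. Those of the yolk syncytial layer list were 336 to 496 in arrays labelled morphant, against 1523 to 2514 in control arrays. At or below background were 2 of the 24 zygotic, 1 of the 18 maternal, 12 of the 17 enveloping layer and 6 of the 8 yolk layer genes in the arrays labelled morphant. In control arrays these were 1, 1, 4 and 2. For the enveloping and yolk layer lists most genes thus have only a bound in arrays labelled morphant, and no fold is given for these lists. From the list for late differentiated tissues, 1 of 21 genes fell, and 18 were at background in either group. The part of these shifts in the ribosomal protein result was not tested.

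In wild type embryos compared across the mid-blastula transition, ribosomal protein transcripts were modestly higher. At 4 hpf, 29 of the 72 genes had risen over 2.5 hpf and 1 had fallen, where 9.66% of all probe sets rose and 9.88% fell. The median difference was 0.24, against 0.05 over all probe sets, and the largest, that of rps2, was 1.63-fold. Both 4 hpf arrays lay above both 2.5 hpf arrays for 54 genes and below them for 3, where 37.7% and 24.6% of all probe sets did so. The family's median level was 10.32 and 10.32 at 4 hpf, against 10.16 and 10.06 at 2.5 hpf. The shift was a fraction of the one in experiment 1, and no gene reached a 2-fold difference, where 0.819% of all probe sets rose and 0.284% fell that far. In all, 19.5% of probe sets were called.

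Rises were seen in both subunits. Of the 27 rps genes 17 rose and 0 fell (median 0.32), and of the 45 rpl genes 12 rose and 1 fell (median 0.20). The difference between the subunits was not tested. The calls were not stable, since 7 of the 30 passed under all 12 alternatives. Rises numbered 19 when the arrays were centred on their medians, where 754 of all 15502 probe sets rose in place of 1498. They numbered 7 when all 10 arrays shared 1 estimate of the spread, where 326 of all probe sets rose. The 12 alternatives include fits without 1 array. These leave 1 array in a group, so by themselves only their medians are given. Without 2.5 hpf replicate 2 the family median was 0.18, against 0.03 over all probe sets. Without 4 hpf replicate 2 it was 0.23, against 0.05.

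Rps2, at the entry of the mRNA channel, read 11.06 and 11.12 at 4 hpf, against 10.47 and 10.30 at 2.5 hpf (0.71, SE 0.09, adjusted p = 3.3e-04). Rps6 read 9.54 and 9.60 at 4 hpf, against 8.96 and 8.90 at 2.5 hpf, a rise of 0.64 (SE 0.09, adjusted p = 4.18e-04). The gap between the time points was several times that between replicates in both genes. The stalk gene rplp2b read 9.89 and 10.03 at 4 hpf, against 9.39 and 9.41 at 2.5 hpf, a rise of 0.56 (adjusted p = 0.00135). Rps3, beside rps2 at the mRNA entry, rose by 0.53 (adjusted p = 0.0026) and rps29 by 0.49 (adjusted p = 0.0027). Rpl12, the stalk's base protein, rose by 0.45 (adjusted p = 0.00609). All 5 genes of the mRNA channel and decoding site rose, by 0.32 to 0.71. Of the 8 head genes 5 rose and of the 7 tunnel exit genes 2 did, rpl19 and rpl31. Of all probe sets 9.66% rose, and these groups, drawn up with the results known, are a description.

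Rpl22l1 was the 1 gene that fell. It read 7.44 and 7.72 at 4 hpf, against 8.08 and 8.11 at 2.5 hpf, 1.43-fold lower (-0.52, SE 0.10, adjusted p = 0.00512), while rpl22 did not pass (0.14, 95% interval -0.06 to 0.34, adjusted p = 0.295). Rplp2 read 9.57 and 9.71 at 4 hpf, against 9.94 and 9.85 at 2.5 hpf without passing (-0.26, adjusted p = 0.0759). The changes of rplp2b and rplp2 lay 0.81 apart (SE 0.05) and those of rpl22 and rpl22l1 0.66 apart (SE 0.21). With 2 arrays against 2 no exact permutation test can fall below p = 0.333, the value all 5 pairs gave without overlap. Rpl5a and rpl5b gave it at a gap of only 0.10, so non-overlap sets no pair apart here. The assembly genes rpl7l1 and rps19bp1 did not pass (-0.10 and -0.13, adjusted p = 0.431 and 0.4). The next lowest were rpl38 at -0.03, rpl35a at -0.01, and rpl14, rpl27a, rpl35 and rpl21, each within 0.01 of no difference.

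Against the family's own shift of 0.21 between 4 hpf and 2.5 hpf, 9 genes stood apart, where 30.6% of all probe sets did, 28.2% below and 2.41% above. Above it were rps2 (0.50), rps6 (0.43), rplp2b (0.35), rps3 (0.32) and rps29 (0.28), with adjusted p-values of 0.00223 to 0.0321. Below it were rpl22l1 (-0.73), rplp2 (-0.47), rps19bp1 (-0.34) and rpl7l1 (-0.31), with adjusted p-values of 8.89e-04 to 0.0433. The other 63 genes were not told apart from the family. Stage markers differed in this comparison as well, the zygotic list mostly upward and the maternal list mostly downward. Of all probe sets 9.66% rose and 9.88% fell. Of 24 zygotic genes 17 rose and 1 fell, with summed levels of 3700 to 3799 at 4 hpf, against 963 to 996 at 2.5 hpf. At or below background were 12 of these 24 at 4 hpf, against 23 at 2.5 hpf, so the sums include genes that were not measured above background. The 1 that fell, fgf8a, was at background at both times. Of 18 maternal transcripts 1 rose and 10 fell, with summed levels of 33150 to 33333 at 4 hpf, against 39686 to 40554 at 2.5 hpf. Their part in the ribosomal protein result was not tested.

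Set side by side, 28 genes fell in the embryos labelled morphant and rose at 4 hpf over 2.5 hpf in wild type embryos, where 3.74% of all probe sets did both. With 68 of the 72 fallen, nearly every gene that rose had to be among them, so this count tells nothing more about the members. A further 39 fell in the first comparison alone, rpl22l1 fell in both, rpl19 rose in the second alone and 3 were called in neither. The differences in both comparisons were weakly related. Across the 72 genes Pearson's r was -0.19 and Spearman's rho -0.15, where genes are not independent and share arrays. Rpl10a and rpl35, among the deepest falls in the embryos labelled morphant, differed between 4 hpf and 2.5 hpf by 0.20 and 0.01 (adjusted p = 0.141 and 0.956). Rps6 was among the largest in both.

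**Figure D3:**
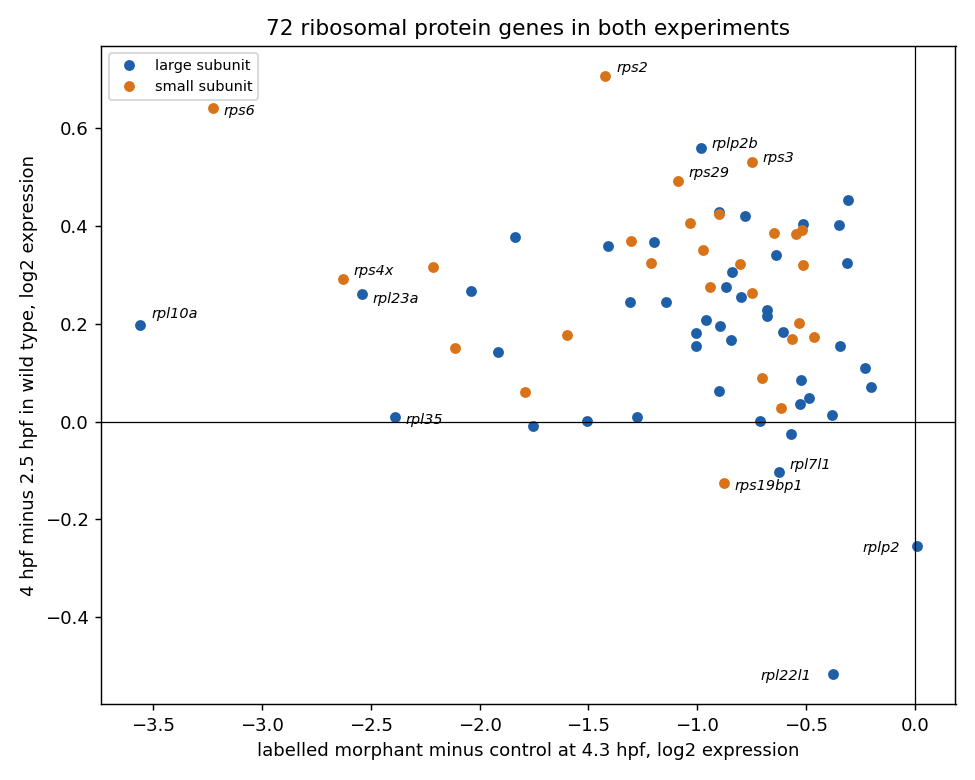
Each of the 72 genes by its difference between embryos labelled morphant and controls at 4.3 hpf (horizontal, log2) and its difference between 4 hpf and 2.5 hpf in wild type embryos (vertical, log2). Most points lie at upper left, lower in the embryos labelled morphant and higher at 4 hpf, and rpl22l1 and rplp2 lie lowest.

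The counts of the other gene lists are read against all probe sets, of which 21.2% fell and 21.3% rose in the embryos labelled morphant, and 9.88% fell and 9.66% rose at 4 hpf over 2.5 hpf. Of 29 measured elongation factors and other mRNAs known in mammals for a terminal oligopyrimidine tract, 14 fell (48.3%) and 3 rose (10.3%) in the embryos labelled morphant (median -0.24). The elongation factor gene eef2a.1 was at background in the arrays labelled morphant and at least 2.14-fold lower (adjusted p = 1.87e-07). Rack1, a signalling scaffold on the small subunit head, fell by 2.24 (adjusted p = 2.14e-07). The gene faua, whose product is cut to give ribosomal protein S30, fell by 1.17 (adjusted p = 2.14e-05), while its relative faub, looked up after the values were seen, did not pass (0.25, adjusted p = 0.0651). The rises were those of the nucleosome assembly genes nap1l4b (1.80) and nap1l1 (0.30) and of eef1db (0.38). At 4 hpf 7 of these 29 (24.1%) had risen over 2.5 hpf and 1 (3.45%) had fallen (median 0.13), with btf3, part of the complex that meets new peptides at the ribosome, at 0.56 and hnrnpa1b at 0.44. At background were 5 of the 29 at 4 hpf and 5 at 2.5 hpf, among them eef2l2, 1 of the 7 that rose. In experiment 1 these were 4 in arrays labelled morphant and 3 in control arrays.

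Of 9 measured genes tied to stored or idle ribosomes, 3 fell (33.3%) and 1 rose (11.1%) in the embryos labelled morphant. With 9 genes these shares say nothing about the list, and its genes are given as single values. Lsg1 fell by 0.48 and eef2b by 0.30. The gene dap1b, whose product plugs the peptide tunnel of stored ribosomes in zebrafish eggs, fell by 1.51 in them (adjusted p = 3.8e-05) and rose by 0.77 at 4 hpf over 2.5 hpf (adjusted p = 1.26e-04). The gene ifrd2, known in mammals from idle ribosomes, went the opposite way, rising by 1.61 (adjusted p = 1.33e-06) in the embryos labelled morphant and falling by 0.60 at 4 hpf (adjusted p = 7.1e-04). Of 21 genes of growth signalling to the ribosome 4 fell (19.0%) and 7 rose (33.3%) in the embryos labelled morphant, and 2 fell (9.52%) and 3 rose (14.3%) at 4 hpf over 2.5 hpf. The shares that fell are near those of all probe sets, and the genes are given as single values. Lamtor2, of the lysosomal scaffold for growth signalling, was 2.30-fold lower (adjusted p = 1.27e-04). It read 5.78, 5.77 and 5.28 in arrays labelled morphant, where background was 5.10, so its fall is measured close to background. Larp1 fell by 0.76 (adjusted p = 3.62e-04) and maf1a, a repressor of RNA polymerase III, by 0.69. Their relatives did not follow, as larp1b rose by 0.54 (adjusted p = 0.0015) and maf1b was not called (-0.01, adjusted p = 0.973). The GTPase gene rragca rose by 1.88 and the kinase genes rps6kal and rps6ka1 by 1.79 and 1.72. At 4 hpf eif4ebp3l rose by 0.46, and larp1b and rraga fell by 0.74 and 0.36.

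Mitochondrial ribosomal protein genes had median differences opposite in sign to the cytosolic ones in both experiments. Of 59 of them 30 rose (50.8%) and 9 fell (15.3%) in the embryos labelled morphant (median 0.35), where 21.3% of all probe sets rose and 21.2% fell. At 4 hpf over 2.5 hpf 3 rose (5.08%) and 17 fell (28.8%) (median -0.18), where 9.66% of all probe sets rose and 9.88% fell. The cytosolic family had medians of -0.86 and 0.24 in the same comparisons, and the difference between the families was not tested.

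**Figure D4:**
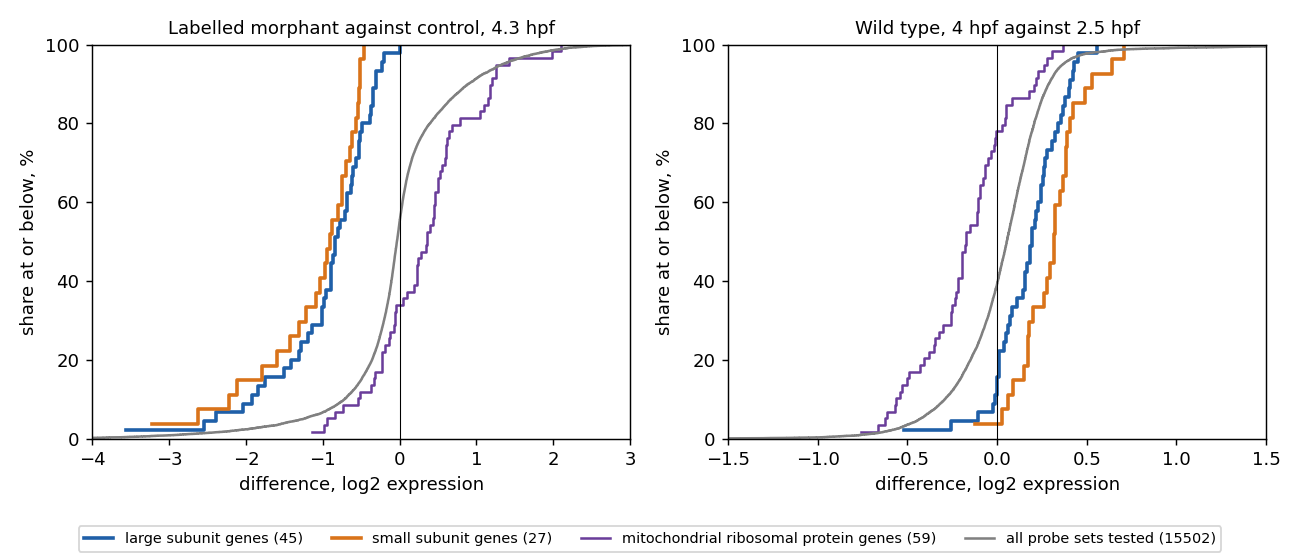
Share of genes at or below each difference (log2 expression) for the large and small subunit genes, the 59 mitochondrial ribosomal protein genes and all 15502 probe sets, in experiment 1 on the left and experiment 2 on the right. Both cytosolic curves lie left of all probe sets on the left panel and right of them on the right panel, and the mitochondrial curve lies on the other side over most of its length.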

How the data were processed

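Per the submitters' processing notes, the authors used affy and RMA (robust multi-array average) and deposited log2 expression for each probe set, with versions not stated. Arrays give no counts, so their number limits the precision, and in experiment 2, where separate populations are not stated, p-values measure only the spread between samples, which may be technical. Of 15617 probe sets, 115 AFFX controls were left out. The array annotation gave 1 gene for 10795 of the rest, several for 135 and none for 4572, and 10711 matched a RefSeq gene table by Entrez identifier. Each experiment was fitted with limma 3.58.1 in R 4.3.3 (lmFit, eBayes, two-sided, group as the only term), tested on simulated data. Plots used matplotlib 3.10.9. Background is the highest group mean among 17 tag control probe sets.

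Replicate numbers may pair the arrays of experiment 1. After removing group means, same-numbered arrays correlated at 0.318, 0.202 and 0.114, all over the set threshold of 0.1, against -0.024 in experiment 2. Differently numbered arrays were not compared, so pairing is not settled. The main fits and the permutation tests took the arrays as unpaired. Members, lists, roles and pairs were chosen with earlier results of these data known. By the rule for named genes, the text gives the 10 lowest and 6 highest members of each experiment, those not called, those at least 1 from the family, and related pairs. In experiment 2, where 42 members were not called, they are given by count with a few examples. Promoter and protein sequences were not used here.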

Additional observations from a re-analysis of the deposited data

How the results depend on the processing

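In experiment 1, 0 genes rose under any of 14 alternatives, and 55 of the 68 falls passed under all of them. Under Bacillus control scaling the median differences were -0.61 for the family, -0.60 for the large and -0.66 for the small subunit. Leaving out 1 array gave 64 to 67 falls (37 to 40 large and 27 small subunit), where 2733 to 3154 of all 15502 probe sets fell. The medians were -0.90 to -0.79. Against the family, 16 to 17 genes were then below, 20 to 26 above and 7 to 8 at least 2-fold below. In the main fit against the family 4.55% of all probe sets were below and 89.0% above. In experiment 2, 7 of the 30 calls passed under all 12 alternatives: rpl22l1, rplp2b, rps19, rps2, rps29, rps3 and rps6. Rises numbered 7 with all 10 arrays in 1 fit (2 large, 5 small), where 326 of all 15502 probe sets rose. With median centring 19 rose (10 small), where 754 of all probe sets did. With joint quantile normalization 11 small subunit genes rose, where 1130 of all probe sets did. Large subunit rises numbered 19 without dim probe sets, where 1197 of 7863 probe sets rose. They numbered 23 with trend and robust settings, where 1747 of 15502 rose. Falls numbered 2 (both large) under those 2 settings, where 1723 of 7863 and 1917 of 15502 probe sets fell. They also numbered 2 (both large) under median centring, where 2302 of 15502 fell. The medians under median centring were 0.15, 0.11 (large) and 0.23 (small). Leaving out 1 array gave 8 to 29 rises (1 to 14 large, 7 to 15 small), 1 fall, medians of 0.18 to 0.27 (0.14 to 0.25 large, 0.28 to 0.35 small), 2 to 5 genes below and 2 to 4 above the family. The cause was not tested. Paired fits, in which the replicate number entered as a block, gave 68 falls in experiment 1, where 3464 of all 15502 probe sets fell. In experiment 2 they gave 28 rises, where 1626 of all probe sets rose. Against the family they put 16 genes below and 25 above in experiment 1. Paired fits moved no count by over 1.5 times. Without rps19bp1 and rpl7l1, an alternative chosen after seeing the data, 66 of 70 fell in experiment 1 and 29 rose in experiment 2. No call turned its direction. The simulated test changed 200 of 15502 probe sets by 2-fold. It recovered 86.5% of them in experiment 1 and 72% in experiment 2, and called 9 and 1 unchanged ones. In the data 42.5% and 19.5% of probe sets were called, and no member differed by 2-fold in experiment 2. These rates therefore do not carry over to the differences reported there.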
